A study of Mus musculus with 12 samples.

Results

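Il21 and Il2 encode 2 T cell cytokines and lie next to each other on mouse chromosome 3. Chromatin accessibility over both genes was measured by ATAC-seq, in which the Tn5 transposase inserts sequencing adapters into open DNA, and the number of sequenced reads given to an open region (a peak) is its count. The 2 genes were chosen with earlier results of these data known, but their peaks were chosen by position and not by their values. Each peak of the deposited count table (build mm10) was given to the nearest protein-coding gene model within 100 kb, and those given to Il21 or Il2 were taken. These were 21 of 48443 peaks, 12 for Il21 and 9 for Il2. Nearness leaves unknown which gene a region regulates.

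The 12 libraries came from 3 wild-type C57BL/6 mice, each of which gave 1 library to each of 4 groups, per the animal labels, and all cells began as naive CD4+ T cells sorted from spleen. They were activated on plates coated with antibodies to CD3 and CD28, each at 1 µg/ml. Th17n cells (non-pathogenic Th17) grew with IL-6 (25 ng/ml) plus TGF-beta1 (2 ng/ml), and iTreg cells (induced regulatory T cells) with the TGF-beta1 dose and no IL-6. The 4 groups were Th17n with 100 µM DFMO, Th17n with vehicle, iTreg with 100 µM DFMO and iTreg with vehicle, all harvested at 68 hours. DFMO (difluoromethylornithine) inhibits ornithine decarboxylase, the enzyme that begins polyamine synthesis. The cells were differentiated in culture, sorted as live, frozen and thawed before tagmentation, so they stand for cultured and not for tissue T cells. The labels give neither the age nor the sex of the mice.

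IL-2 is made by newly activated T cells when calcineurin-activated NFAT, AP-1 and NF-kB bind upstream of its gene, and it signals through STAT5 to support regulatory T cells and to restrain Th17 differentiation. IL-21 is made by Th17 and follicular helper T cells; IL-6 induces its gene through STAT3, with IRF4, BATF and c-Maf as further activators. Both cytokines bind receptors that contain the common gamma chain, and IL-21 acts back on the Th17 cells that make it. The genes belong to the same cytokine family and are transcribed from the same strand.

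In GRCm38.p6, the RefSeq annotation of the same build, the Il2 model spans chr3:37120713-37125954 and the Il21 model chr3:37222759-37232636, both on the minus strand, with 96.8 kb between them. Upstream therefore means higher coordinates. The 250 bases before each start site are shown because they carry the first contrast between the genes, in where peaks were called. A peak at chr3:37232572-37232827 spans the Il21 start site and covers the last 191 of its 250 bases, whereas no Il2 peak overlaps the Il2 window. Without a peak the Il2 window has no counts, so its accessibility is not known here. Capitals mark the core letters of NFAT sites, GGAAA or its reverse complement.
Il21, chr3:37232637-37232886, minus strand: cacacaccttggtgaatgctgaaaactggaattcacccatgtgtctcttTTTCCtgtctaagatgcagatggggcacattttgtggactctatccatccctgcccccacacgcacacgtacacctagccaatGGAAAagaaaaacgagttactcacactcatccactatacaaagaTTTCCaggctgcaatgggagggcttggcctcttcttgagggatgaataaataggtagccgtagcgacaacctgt
Il2, chr3:37125955-37126204, minus strand: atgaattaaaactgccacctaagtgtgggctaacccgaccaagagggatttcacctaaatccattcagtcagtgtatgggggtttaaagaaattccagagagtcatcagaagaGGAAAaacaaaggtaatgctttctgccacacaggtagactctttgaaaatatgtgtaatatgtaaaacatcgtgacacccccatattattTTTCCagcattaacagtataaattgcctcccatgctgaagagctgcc
The Il21 window holds GGAAA 3 times, at 201 to 197, 118 to 114 and 74 to 70 bases before the start, and the Il2 window holds it 2 times, at 137 to 133 and 47 to 43 bases before the start. These letters occur on either strand in 55.6% of the 32851 RefSeq windows of this length, so their presence does not set the genes apart. Neither window matched the letters searched for AP-1 (TGANTCA, in 6.75% of windows), STAT (TTCNNNGAA, in 7.02%), NF-kB (in 1.41%) or GATA factors (AGATAA, in 9.99%), on either strand. The NF-kB pattern ends in the reverse complement of the NFAT letters. A match of letters is no evidence of binding, and other versions of these sites were not searched.

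The 21 peaks are named by the distance of their centre from the start site of their gene. The 12 Il21 peaks ran from 52.6 kb downstream to 27.1 kb upstream, and 1 of them, at 1.3 kb downstream, lay inside the gene. The 9 Il2 peaks all lay upstream, at 1.6 to 48.1 kb, and the last of these lay at the middle of the interval toward Il21. The peaks at 45.7 and 48.1 kb upstream of Il2 lie inside the model of the long non-coding RNA gene Gm36000. Counts are given as CPM, the counts of a peak scaled to a common total of all counts in peaks of its library, in the order of animals 1, 2 and 3. Library totals ran from 1020937 to 6496550, so that 1 count was worth 0.154 to 0.979 CPM.

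**Figure D1:**
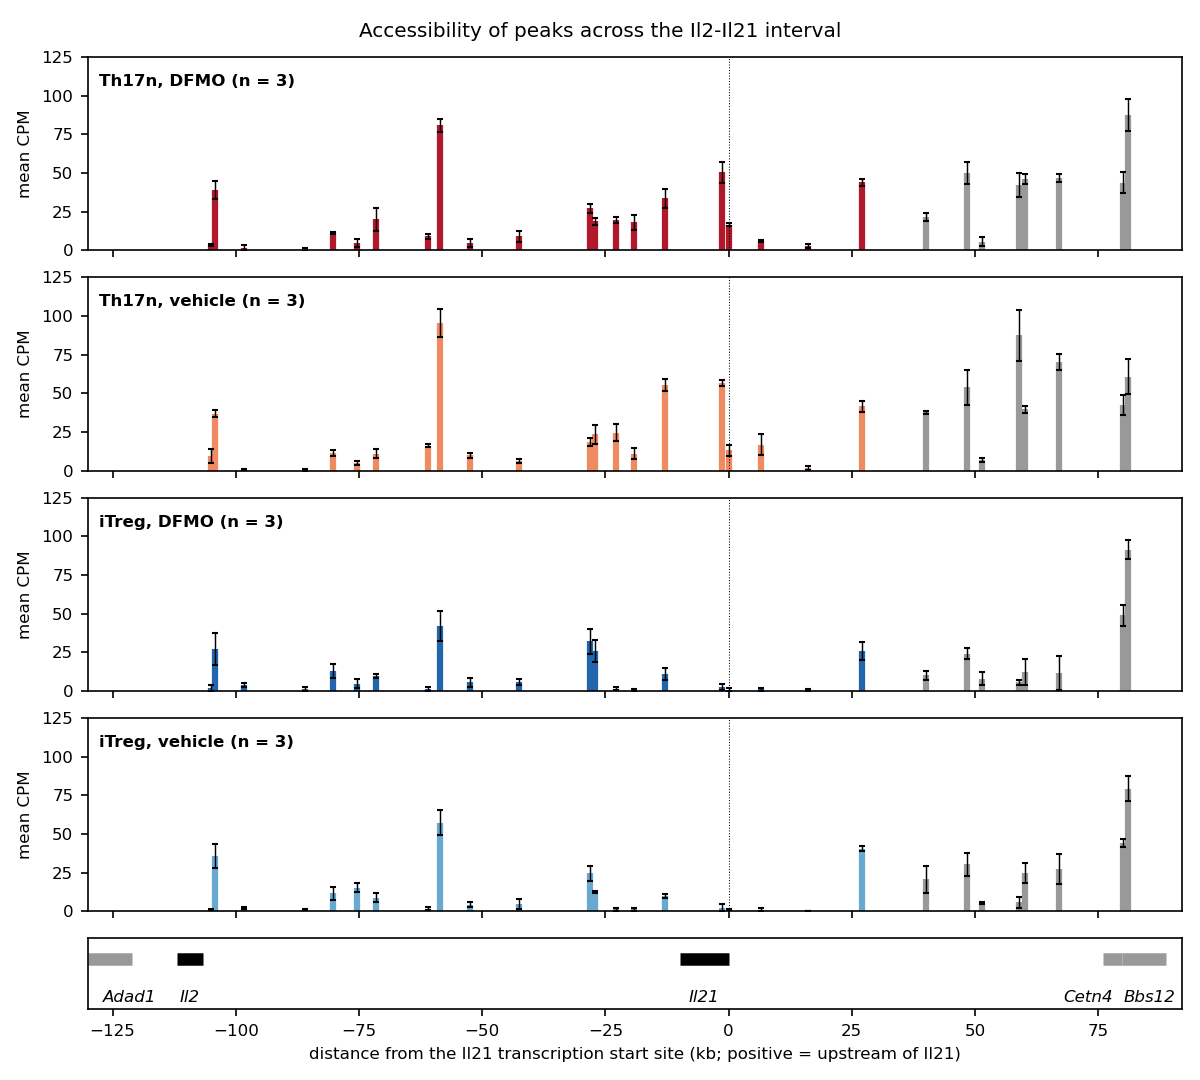
Mean accessibility (CPM, y axis; error bars, SD of 3 libraries) of each peak against its distance from the Il21 start site in kb (x axis, positive upstream of Il21), in Th17n with DFMO, Th17n with vehicle, iTreg with DFMO and iTreg with vehicle. Coloured bars are Il21 and Il2 peaks, grey bars are peaks of Cetn4 and Bbs12, and the bottom strip shows the gene models. The bars around the Il21 gene are taller in both Th17n panels than in the iTreg panels, where those at the start site and inside the gene are near 0, whereas the Il2 peak 2.5 kb upstream averages 27.2 to 39.0 CPM in all 4.

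The Il21 gene and its surroundings separated Th17n from iTreg cells. The peak inside the gene, 1.3 kb downstream of the start (chr3:37231027-37231695), had 58.5, 46.7 and 46.2 CPM in Th17n cells with DFMO and 55.8, 55.6 and 58.7 CPM in Th17n cells with vehicle. It had 0.587, 4.27 and 2.05 CPM in iTreg cells with DFMO and 1.02, 1.29 and 4.85 CPM in iTreg cells with vehicle. Every Th17n library was above every iTreg library, under either treatment. Accessibility was 20.3-fold higher in Th17n than in iTreg cells with DFMO (log2 4.34 ± 0.45, standard error; adjusted p = 2.5e-13), and 19.6-fold higher with vehicle (log2 4.30 ± 0.36; adjusted p = 2.9e-15), which was more than in 99.4% of all peaks tested with vehicle. Here and below, adjusted p is from edgeR's quasi-likelihood test on the counts of all tested peaks in the 12 libraries, with Benjamini-Hochberg adjustment and a threshold of 0.05, and ± after a log2 value is its standard error.

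The peak over the Il21 start site, where transcription of the cytokine begins, showed the same separation. It had 15.9, 17.7 and 16.3 CPM in Th17n cells with DFMO, against 0, 1.90 and 0 CPM in iTreg cells with DFMO. With vehicle, it had 16.7, 10.2 and 12.3 CPM in Th17n cells and 1.53, 0.645 and 0.809 CPM in iTreg cells. The lineages did not overlap under either treatment, with a log2 difference of 4.72 ± 0.84 with DFMO (adjusted p = 2.7e-08) and 3.68 ± 0.60 with vehicle (adjusted p = 1.3e-07). The DFMO value rests on the 1 iTreg DFMO library with any count: without iTreg DFMO animal 2 the fitted value was 8.69, against libraries at 0 where 3 counts would be 1.76 and 0.879 CPM, so its size is poorly fixed.

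Going upstream, the peak at 6.5 kb (chr3:37238914-37239455) had 5.52, 6.06 and 6.51 CPM in Th17n cells with DFMO and 24.5, 11.9 and 14.1 CPM in Th17n cells with vehicle. All 6 iTreg libraries lay between 0 and 2.02 CPM, below every Th17n library. Th17n cells exceeded iTreg cells by log2 2.70 ± 0.76 with DFMO (adjusted p = 0.0011) and by 3.64 ± 0.57, or 12.4-fold, with vehicle (adjusted p = 1.3e-07). The peak at 16.0 kb had too few counts to be tested, at 1.95 to 4.22 CPM in Th17n cells with DFMO, 0 to 2.62 CPM in Th17n cells with vehicle and 0 to 0.879 CPM in iTreg cells with DFMO. It had no count in iTreg cells with vehicle, which allows up to 0.260 CPM over the 3 libraries together by counting error alone.

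Downstream of the gene, 3 further peaks belonged to the same Th17n pattern. The peak at 12.8 kb (chr3:37219178-37220397) had 30.2, 40.7 and 30.0 CPM in Th17n cells with DFMO and 59.7, 53.9 and 52.9 CPM in Th17n cells with vehicle. In iTreg cells it had 13.5, 6.17 and 13.2 CPM with DFMO and 9.72, 11.4 and 8.29 CPM with vehicle. The lineages were again apart in every library, but here iTreg cells kept a signal above the few counts seen at the start site, and the lineage difference was 2.90-fold with DFMO (adjusted p = 7.9e-06) and 5.33-fold with vehicle (adjusted p = 3.0e-11).

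The peak at 19.2 kb (chr3:37213237-37213705) had 13.6, 23.4 and 16.9 CPM in Th17n cells with DFMO and 6.86, 13.1 and 13.2 CPM in Th17n cells with vehicle, against at most 2.56 CPM in any iTreg library. The peak at 22.8 kb (chr3:37209524-37210096) had 22.1, 18.6 and 18.9 CPM in Th17n cells with DFMO and 18.6, 29.2 and 25.8 CPM in Th17n cells with vehicle, against at most 2.85 CPM in any iTreg library. Both were open in all Th17n libraries and close to the counting limit in iTreg cells. Their log2 differences between Th17n and iTreg cells were 4.33 ± 0.74 and 3.72 ± 0.57 with DFMO, and 3.71 ± 0.63 and 4.05 ± 0.48 with vehicle, for 19.2 and 22.8 kb in that order (largest adjusted p of the 4 values 2.3e-07).

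**Figure D2:**
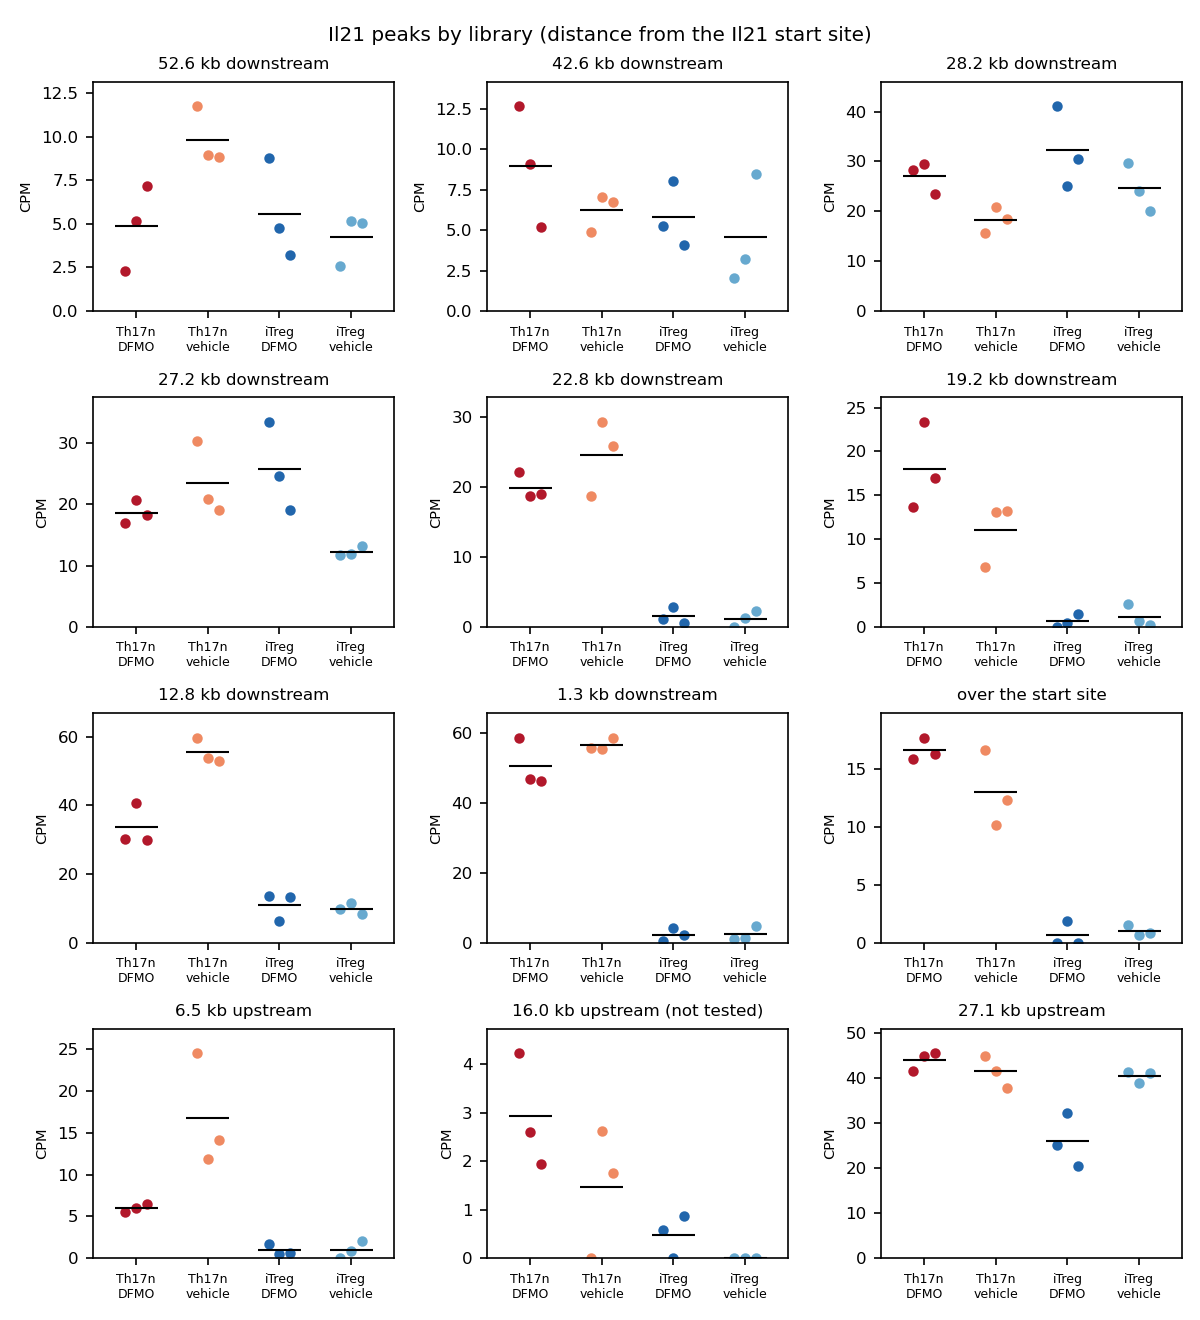
CPM in each library (points, y axis) at the 12 Il21 peaks in the 4 groups (x axis), with the mean of 3 libraries as a line; each panel has its own y axis from 0. At the peaks from 22.8 kb downstream to 6.5 kb upstream all Th17n points lie above all iTreg points, whereas at 42.6 and 28.2 kb downstream the lineages overlap.

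The outermost Il21 peaks did not follow this pattern. The peak at 28.2 kb downstream had 23.4 to 29.4 CPM in Th17n cells with DFMO and 15.7 to 20.8 CPM in Th17n cells with vehicle. The iTreg libraries had 25.1 to 41.1 CPM with DFMO and 20.0 to 29.7 CPM with vehicle. Its log2 lineage difference was -0.29 ± 0.24 with DFMO (adjusted p = 0.35) and -0.41 ± 0.24 with vehicle (adjusted p = 0.16). It was thus open in both lineages. The peaks at 42.6 and 52.6 kb were low everywhere, at 2.05 to 12.7 CPM and 2.27 to 11.8 CPM over the 12 libraries. At 52.6 kb the Th17n vehicle libraries (11.8, 8.93 and 8.81 CPM) lay above the iTreg vehicle libraries (2.56, 5.16 and 5.05 CPM) with an adjusted p of 0.052, which was 0.0296 with only those groups fitted and 0.0393 with library totals in place of TMM scaling.

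The Il21 peaks at 27.2 kb downstream and 27.1 kb upstream flank those with the Th17n pattern, and each passed the lineage test under 1 of the treatments. Whether their lineage difference itself differed between treatments is given with the DFMO results. At 27.2 kb downstream (chr3:37205158-37205764), Th17n cells had 16.9, 20.8 and 18.2 CPM with DFMO and 30.4, 20.9 and 19.1 CPM with vehicle, and iTreg cells had 33.5, 24.7 and 19.0 CPM with DFMO and 11.8, 11.8 and 13.1 CPM with vehicle. With DFMO the lineages overlapped, at a log2 difference of -0.50 ± 0.27 (adjusted p = 0.14). With vehicle they did not overlap, and Th17n cells were 1.72-fold higher (log2 0.79 ± 0.27; adjusted p = 0.014, and 0.0511 without iTreg vehicle animal 2). At 27.1 kb upstream (chr3:37259439-37260051), Th17n cells had 41.6, 45.0 and 45.6 CPM with DFMO and 45.1, 41.7 and 37.9 CPM with vehicle, and iTreg cells had 25.2, 32.3 and 20.5 CPM with DFMO and 41.4, 38.9 and 41.2 CPM with vehicle. Only the iTreg DFMO libraries stood apart, below the other 3 groups. The lineage difference was 1.64-fold with DFMO (log2 0.71 ± 0.20; adjusted p = 0.0043, and 0.0854 without iTreg DFMO animal 3), and log2 -0.05 ± 0.18 with vehicle (adjusted p = 0.86).

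In all, 7 of the 11 tested Il21 peaks were higher in Th17n than in iTreg cells with DFMO and 7 of 11 with vehicle, and none was lower, with a median log2 difference of 1.53 with DFMO and 2.41 with vehicle. With Il2 included the counts were 10 higher and 0 lower of 18 tested with DFMO, where 22.5% of all 43726 tested peaks were higher and 14.7% lower. With vehicle they were 10 higher and 1 lower of 18, where 25.2% of all peaks were higher and 19.3% lower. The median over all peaks was close to 0 with DFMO and -0.07 with vehicle. The filter on low counts keeps a peak that is high in 1 group only, so these counts describe the peaks and support no claim about the 3 left untested. A list of B cell genes also summed higher in Th17n libraries, at 214 to 255 CPM against 111 to 166 CPM in iTreg libraries; Cd79a, Cd79b and Ms4a1 had no peak, and the 2 with peaks differed in direction. Ebf1 averaged 199 and 219 CPM in Th17n cells with DFMO and with vehicle, against 81.7 and 102 CPM in iTreg cells with DFMO and with vehicle. Pax5 averaged 32.0 and 21.5 CPM in Th17n cells, against 35.2 and 38.4 CPM in iTreg cells, in the same order of treatments. A cytotoxic and NK list of 7 genes, 4 with a peak and none for Cd8a, Ncr1 or Nkg7, summed lower in Th17n libraries, at 199 to 251 CPM against 272 to 332 CPM in iTreg libraries. Of its 4 genes, Cd8b1 averaged more in Th17n cells (36.2 CPM with DFMO and 33.7 CPM with vehicle) than in iTreg cells (30.0 CPM with DFMO and 18.3 CPM with vehicle), and the other 3 less. The part of both lists in the lineage differences was not tested, and fewer cells with a region open cannot be told apart from fewer insertions per cell.

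Grouped after their values were seen, and so without a test, the 6 central Il21 peaks from 22.8 kb downstream to 6.5 kb upstream summed to 135 to 153 CPM in Th17n cells with DFMO and 174 to 182 CPM in Th17n cells with vehicle. Their sum was 16.1 to 17.9 CPM in iTreg cells with DFMO and 14.8 to 18.4 CPM in iTreg cells with vehicle. They made up 57.6% and 63.8% of all Il21 counts in Th17n cells with DFMO and with vehicle, and 15.4% and 16.0% in iTreg cells with DFMO and with vehicle. Per kb of peak, the densest Il21 peak in Th17n cells was the one inside the gene, at 75.6 CPM per kb with DFMO and 84.9 CPM per kb with vehicle. In iTreg cells with vehicle it was the one at 27.1 kb upstream, at 66.2 CPM per kb.

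**Figure D3:**
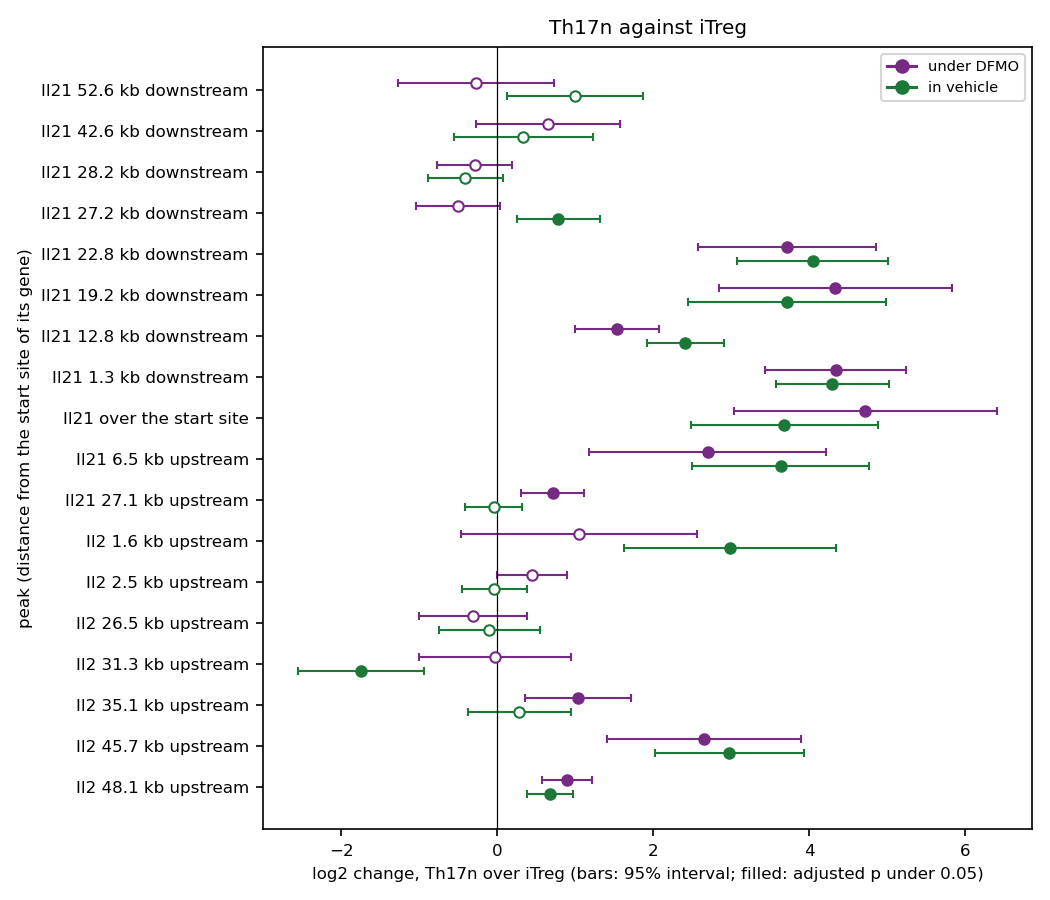
Estimated log2 difference between Th17n and iTreg cells (x axis, Th17n over iTreg; bars, 95% intervals) at the 18 tested peaks (y axis), with DFMO and with vehicle; filled points passed the threshold. Points near 4 belong to the Il21 gene and its flanks, and the Il2 peak at 31.3 kb is the 1 filled point left of 0, with vehicle.

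The Il2 peaks gave a mixed picture between the lineages. The second peak going upstream, at 2.5 kb (chr3:37128167-37128752), was open in every group, with 33.9 to 45.4 CPM in Th17n cells with DFMO and 34.3 to 38.3 CPM in Th17n cells with vehicle. In iTreg cells it had 17.6 to 38.0 CPM with DFMO and 27.6 to 42.6 CPM with vehicle. Its log2 lineage difference was 0.45 ± 0.22 with DFMO (adjusted p = 0.11) and -0.04 ± 0.21 with vehicle (adjusted p = 0.90); the first was 0.72 and passed (adjusted p = 0.0150) without iTreg DFMO animal 2. The peak at 26.5 kb was also open in both lineages, at 8.17 to 18.2 CPM over the 12 libraries, with lineage differences of -0.31 ± 0.34 with DFMO (adjusted p = 0.50) and -0.10 ± 0.32 with vehicle (95% interval -0.75 to 0.55). The peaks at 8.4 and 20.8 kb had at most 5.28 and 2.35 CPM in any library and were not tested.

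Higher in Th17n cells were the peaks at 1.6, 45.7 and 48.1 kb. The narrow peak at 1.6 kb (chr3:37127483-37127678) had 2.92, 3.89 and 2.60 CPM in Th17n cells with DFMO and 14.7, 7.39 and 6.46 CPM in Th17n cells with vehicle. The iTreg libraries had 4.11, 0 and 0.879 CPM with DFMO and 0.511, 0.860 and 1.42 CPM with vehicle. Only the Th17n vehicle libraries stood clear of the rest. The log2 difference of Th17n over iTreg cells was 1.04 ± 0.75 with DFMO (adjusted p = 0.27; 2.37 and 0.0368 without iTreg DFMO animal 1), and with vehicle Th17n cells were 7.89-fold higher (log2 2.98 ± 0.68; adjusted p = 1.3e-04).

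The peak at 45.7 kb (chr3:37171473-37171746) had 7.47, 9.52 and 10.4 CPM in Th17n cells with DFMO and 15.7, 15.4 and 17.3 CPM in Th17n cells with vehicle. In iTreg cells it had 0, 0.949 and 2.34 CPM with DFMO and 0.511, 1.72 and 2.83 CPM with vehicle. It was 6.27-fold higher in Th17n cells with DFMO (log2 2.65 ± 0.62; adjusted p = 1.5e-04) and 7.87-fold higher with vehicle (log2 2.98 ± 0.48; adjusted p = 4.2e-07). Its neighbour at 48.1 kb (chr3:37173066-37175019), 1953 bp wide and the Il2 peak with the most counts, had 81.9, 76.2 and 84.6 CPM in Th17n cells with DFMO and 85.2, 102 and 100.1 CPM in Th17n cells with vehicle. In iTreg cells it had 53.4, 36.5 and 36.6 CPM with DFMO and 52.2, 53.3 and 66.5 CPM with vehicle. Both peaks separated the lineages in every library, at 48.1 kb by 1.86-fold with DFMO (log2 0.90 ± 0.16; adjusted p = 1.6e-05) and 1.60-fold with vehicle (log2 0.68 ± 0.15; adjusted p = 1.6e-04).

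The peak at 31.3 kb (chr3:37157019-37157409) went the other way. It had 2.60, 7.79 and 4.56 CPM in Th17n cells with DFMO and 5.88, 5.54 and 3.23 CPM in Th17n cells with vehicle. The iTreg libraries had 2.35, 8.07 and 3.81 CPM with DFMO and 14.3, 13.1 and 18.4 CPM with vehicle. The iTreg vehicle libraries were above all 9 others. The log2 difference of Th17n over iTreg cells was -0.03 ± 0.48 with DFMO (adjusted p = 0.97), and with vehicle accessibility was 3.35-fold lower in Th17n cells (log2 -1.75 ± 0.40; adjusted p = 3.3e-04). The peak at 35.1 kb (chr3:37160820-37161375) had 20.8, 27.3 and 12.4 CPM in Th17n cells with DFMO and 7.84, 13.4 and 11.7 CPM in Th17n cells with vehicle. In iTreg cells it had 8.07 to 11.2 CPM with DFMO and 6.14 to 12.1 CPM with vehicle. It was 2.04-fold higher in Th17n than in iTreg cells with DFMO (log2 1.03 ± 0.34; adjusted p = 0.012), a call lost without Th17n DFMO animal 2 (log2 0.76; adjusted p = 0.125).

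**Figure D4:**
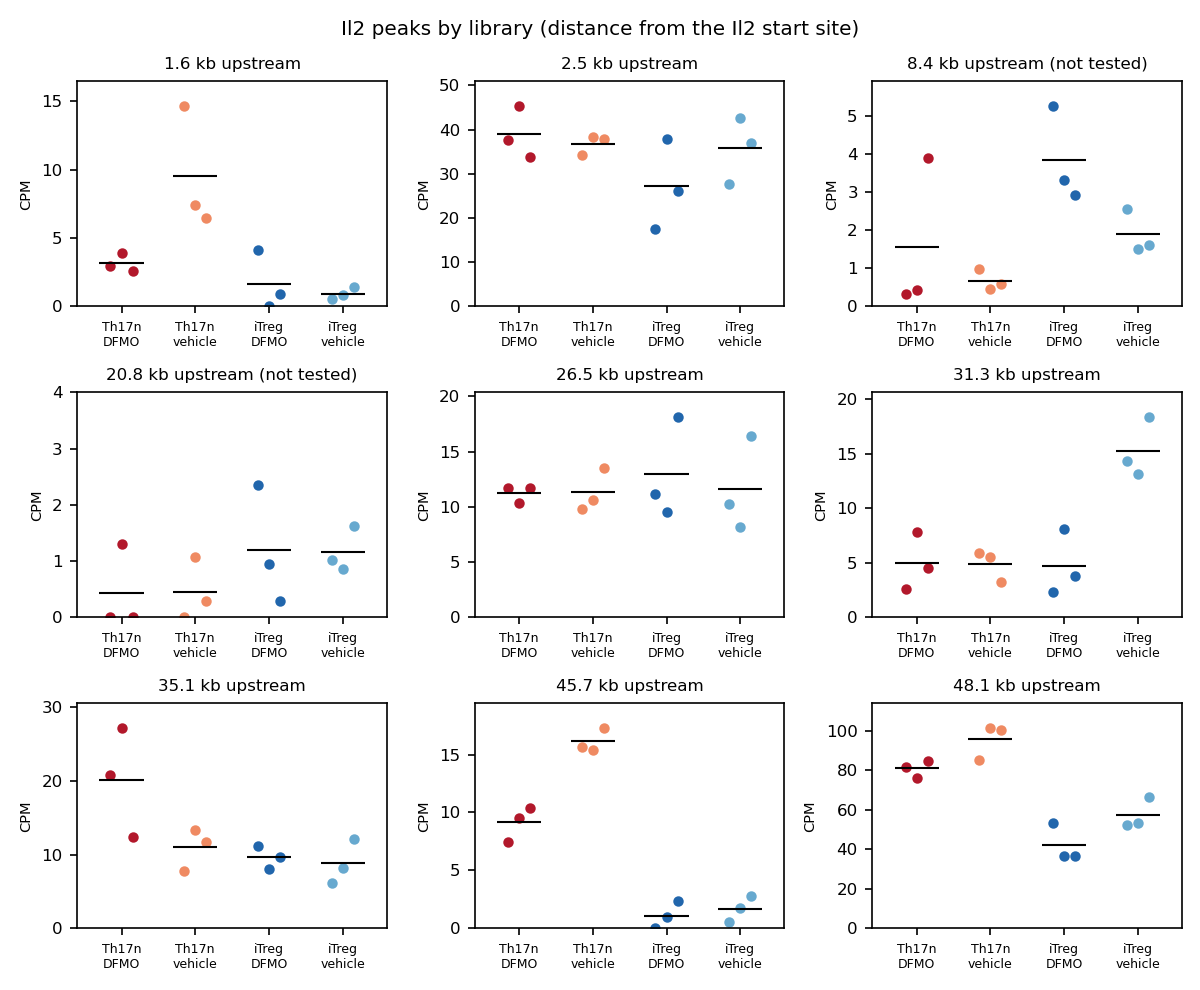
CPM in each library (points, y axis) at the 9 Il2 peaks in the 4 groups (x axis), with the mean of 3 libraries as a line; each panel has its own y axis from 0. At 31.3 kb upstream the iTreg vehicle points, between 13.1 and 18.4 CPM, lie above all others, and at 45.7 kb all Th17n points lie above all iTreg points.

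With DFMO, 2 peaks that flank the Il21 gene were lower in Th17n cells, and neither the peak over its start site nor the one inside it passed the test. The peak at 6.5 kb upstream, given above by library, was 2.58-fold lower with DFMO (log2 -1.36 ± 0.44; 95% interval -2.26 to -0.47; adjusted p = 0.043), and the peak at 12.8 kb downstream was 1.60-fold lower (log2 -0.68 ± 0.22; -1.13 to -0.23; adjusted p = 0.043). At both, every DFMO library lay below every vehicle library. The start site had an estimate of log2 0.45 ± 0.38 (-0.31 to 1.21; adjusted p = 0.52), with overlapping libraries, and the peak inside the gene one of -0.13 ± 0.23 (-0.60 to 0.34; adjusted p = 0.79). None of the 18 tested peaks was called higher and 2 were called lower, beside 4.50% higher and 4.28% lower of all 43726 peaks; 7 of the 18 had an unadjusted p under 0.05.

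The summed T cell, Treg and Th17 marker lists also stood lower with DFMO, with no overlap between treatments in either lineage. The cytotoxic and NK, B cell and myeloid lists overlapped between treatments in both lineages. T cell genes (6 of 6 with a peak) had 548 to 591 CPM with DFMO and 653 to 678 CPM with vehicle in Th17n cells, and 639 to 693 CPM with DFMO and 712 to 727 CPM with vehicle in iTreg cells. The lower T cell sum rested on Cd2. It averaged 297 CPM with DFMO and 392 CPM with vehicle in Th17n cells. In iTreg cells it averaged 350 CPM with DFMO and 433 CPM with vehicle. Most other genes of this list went the other way. In Th17n cells Cd3e (78.2 CPM with DFMO and 64.1 CPM with vehicle), Cd3d and Cd3g averaged more with DFMO, and Cd4 and Lck less. In iTreg cells Cd3e, Cd3g, Cd4 and Lck averaged more with DFMO, and Cd3d less. Treg genes (6 of 6) had 1076 to 1141 CPM with DFMO and 1341 to 1425 CPM with vehicle in Th17n cells, and 1098 to 1279 CPM with DFMO and 1361 to 1433 CPM with vehicle in iTreg cells. All 6 averaged less with DFMO in Th17n cells, Ctla4 at 322 CPM with DFMO and 424 CPM with vehicle and Tnfrsf18 at 94.1 and 209 CPM. In iTreg cells Ctla4 (199 and 322 CPM) and Tnfrsf18 (176 and 268 CPM) averaged less with DFMO, with smaller falls at Il2ra and Ikzf2. Ikzf4 (187 CPM with DFMO and 140 CPM with vehicle) and Foxp3 (5.14 and 4.27 CPM) averaged more there. The part of these shifts in the DFMO results at Il21 and Il2 was not tested.

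Both calls were close to the threshold. Leaving out any 1 of the 6 Th17n libraries ended the call at 6.5 kb (adjusted p 0.0654 to 0.142; log2 -1.15 without vehicle animal 1, the highest library). At 12.8 kb the call ended without DFMO animal 1 (adjusted p = 0.154), DFMO animal 3 (0.117), or vehicle animals 1 (0.0695), 2 (0.117) or 3 (0.0961), and with all libraries thinned to the shallowest depth (0.182). These peaks were also among those higher in Th17n than in iTreg cells with vehicle, a comparison that shares the Th17n vehicle libraries with this one. The other 9 tested Il21 peaks had estimates of log2 -1.03 to 0.62 and did not pass.

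None of the 7 tested Il2 peaks passed in Th17n cells with DFMO. The largest estimates were log2 -1.42 ± 0.59 at 1.6 kb (adjusted p = 0.12), where every DFMO library was below every vehicle library, and 0.83 ± 0.32 at 35.1 kb (adjusted p = 0.091), where the groups overlapped. With only the 6 Th17n libraries fitted, both passed, with adjusted p of 0.0402 and 0.0439. The 45.7 kb peak had an estimate of -0.82 ± 0.39 (adjusted p = 0.20) with DFMO libraries below vehicle libraries. The peak at 2.5 kb gave 0.10 ± 0.21 (95% interval -0.34 to 0.53).

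In iTreg cells the DFMO calls fell on other peaks, all outside the central Il21 region. The peak 27.2 kb downstream of Il21 was 2.07-fold higher with DFMO (log2 1.05 ± 0.27; 95% interval 0.51 to 1.58; adjusted p = 0.0091), with all 3 DFMO libraries (19.0 to 33.5 CPM) above all vehicle libraries (11.8 to 13.1 CPM). The peak 27.1 kb upstream of Il21 was 1.56-fold lower (log2 -0.64 ± 0.20; -1.03 to -0.24; adjusted p = 0.031). The Il2 peak at 31.3 kb was 3.17-fold lower (log2 -1.66 ± 0.42; -2.51 to -0.82; adjusted p = 0.0066), and its level with DFMO, 4.74 ± 2.97 CPM, was close to the 4.98 ± 2.62 and 4.88 ± 1.44 CPM of Th17n cells with DFMO and with vehicle (SD, n = 3 each). In all 3 the DFMO and vehicle libraries did not overlap. These were 1 higher and 2 lower of 18 peaks, beside 3.84% higher and 4.72% lower of all peaks, and 4 of the 18 had an unadjusted p under 0.05.

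Single libraries again decided these calls. The rise at 27.2 kb had an adjusted p of 0.0712 without iTreg DFMO animal 1. The fall at 27.1 kb did not pass without DFMO animal 1 (0.0834) or 3 (0.258), without vehicle animal 2 (0.0786) or 3 (0.111), after thinning (0.220) or with only the iTreg libraries fitted (0.0706). The fall at 31.3 kb of Il2 did not pass without vehicle animal 3 (0.0648) or DFMO animal 3 (0.0689), or after thinning (0.0750). The Il2 peak at 48.1 kb just missed the threshold, with log2 -0.46 ± 0.16 (adjusted p = 0.058) and overlapping libraries, and passed without vehicle animal 1 (0.0361), without DFMO animal 1 (0.0239) and with library totals (0.0451). The 6 central Il21 peaks were near the counting limit in most iTreg libraries, apart from the one at 12.8 kb, so that at the start site a change between log2 -2.52 and 1.33 lay within the 95% interval.

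**Figure D5:**
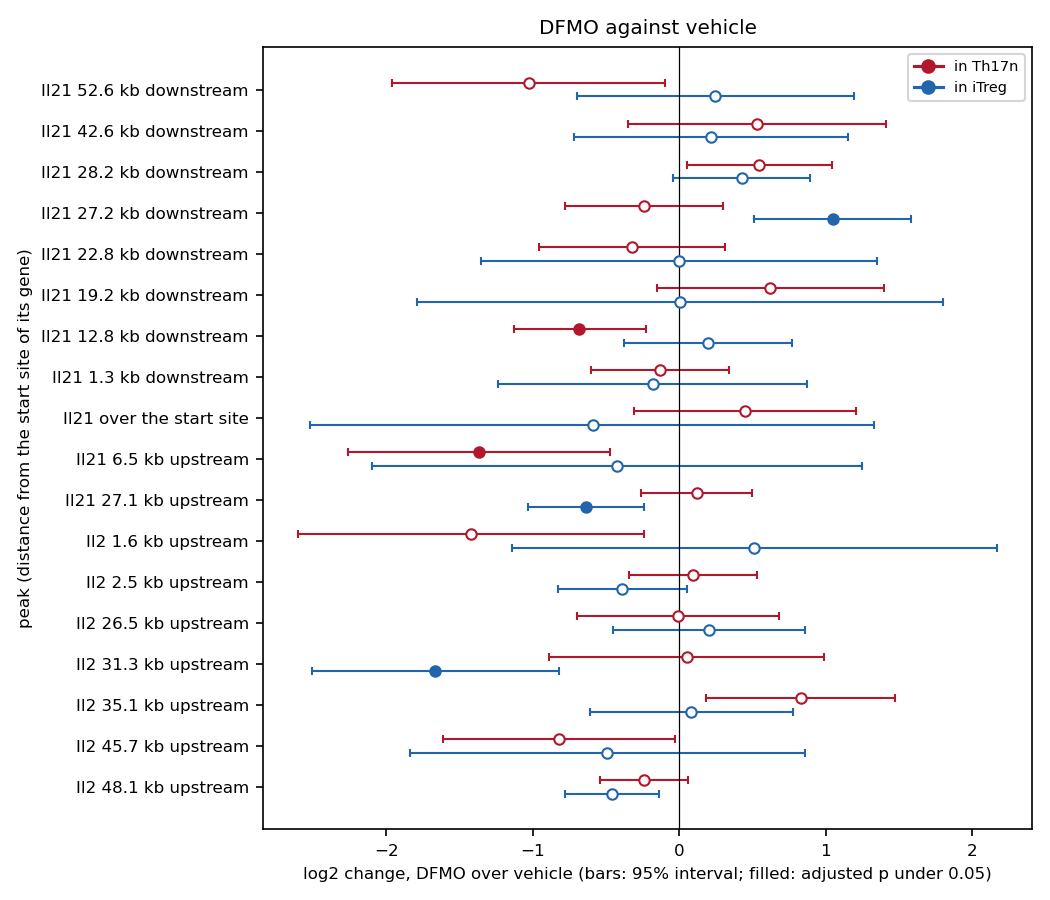
Estimated log2 change with DFMO over vehicle (x axis; bars, 95% intervals) at the 18 tested peaks (y axis), in Th17n and in iTreg cells; filled points passed the threshold. The 2 filled Th17n points, at 12.8 kb downstream and 6.5 kb upstream of Il21, lie left of 0, and the 3 filled iTreg points belong to other peaks.

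That different peaks passed in the 2 lineages does not show that the response differed, and the difference of the responses was tested by itself. None of the 18 peaks passed with edgeR (beside 0.835% of all peaks higher and 0.478% lower), although 4 had an unadjusted p under 0.05. The smallest adjusted p belonged to the peak 27.2 kb downstream of Il21, where the DFMO change in Th17n cells minus that in iTreg cells was log2 -1.29 ± 0.38 (adjusted p = 0.071; DESeq2, adjusted p = 0.0472). At 31.3 kb of Il2 the difference was 1.71 ± 0.63 (adjusted p = 0.17), at 27.1 kb of Il21 0.76 ± 0.27 (0.16), and at 12.8 kb of Il21 -0.88 ± 0.36 (0.24). Without iTreg DFMO animal 2, the peaks at 31.3 and 27.1 kb passed (adjusted p 0.0414 and 0.0455), and 1370 peaks of the whole table passed, against 574 with that library.

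Summed over all its peaks, Il21 had 252, 265 and 236 CPM in Th17n cells with DFMO and 289.9, 276 and 269.9 CPM in Th17n cells with vehicle. The iTreg libraries had 131, 111 and 96.1 CPM with DFMO and 102, 99.3 and 106 CPM with vehicle. Il2 had 165, 182 and 164 CPM in Th17n cells with DFMO and 174, 194 and 191 CPM in Th17n cells with vehicle. In iTreg cells it had 107, 105 and 101 CPM with DFMO and 115, 130.3 and 158 CPM with vehicle. Both sums were higher in every Th17n library than in any iTreg library of the same treatment. The Il21 sum was 2.32-fold higher in Th17n cells with DFMO (adjusted p = 1.9e-13) and 2.83-fold with vehicle (adjusted p = 8.1e-18), and the Il2 sum 1.68-fold with DFMO (adjusted p = 7.5e-07) and 1.45-fold with vehicle (adjusted p = 5.8e-05), tested with edgeR over the sums of 14178 genes. Of these genes, 26.7% passed with DFMO and 32.9% with vehicle, in either direction. With vehicle, the Il2 difference in CPM lay at the peaks at 45.7 and 48.1 kb, inside Gm36000. The peak at 48.1 kb had 85.2 to 102 CPM in Th17n and 52.2 to 66.5 CPM in iTreg cells with vehicle. Elsewhere with vehicle, Il2 peaks went both ways, higher in Th17n cells at 1.6 kb and lower at 31.3 kb. With DFMO, the peaks at 45.7 and 48.1 kb held most of the Il2 difference. The Il2 sum without them was not tested.

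DFMO lowered the summed accessibility of Il2 in iTreg cells by log2 -0.39 ± 0.11 (1.31-fold; adjusted p = 0.016), where 12.6% of genes passed. The DFMO libraries, at 101 to 107 CPM, lay below the vehicle libraries, at 115 to 158 CPM, but the vehicle libraries spread widely, and the call ended without vehicle animal 3 (log2 -0.25; adjusted p = 0.239) and without DFMO animal 3 (log2 -0.36; adjusted p = 0.0947). Il21 did not pass in iTreg cells (log2 0.11 ± 0.11; 95% interval -0.11 to 0.33; adjusted p = 0.58). In Th17n cells, where 11.0% of genes passed, the estimates were log2 -0.18 ± 0.10 for Il21 (-0.38 to 0.02; adjusted p = 0.25) and -0.18 ± 0.11 for Il2 (-0.40 to 0.04; adjusted p = 0.30), and neither passed. The difference between the lineages in the DFMO change passed for neither sum (adjusted p = 0.35 for Il21 and 0.57 for Il2; 1.92% of genes passed).

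The rule that gives each peak to 1 gene draws borders that the signal does not follow. Between the genes, the Il2 peak at 48.1 kb upstream lies 47.1 kb from the Il2 model, and the next peak, given to Il21, lies 42.4 kb from the Il21 model. The first had 80.9 ± 4.33 CPM and the second 4.88 ± 2.46 CPM in Th17n cells with DFMO, so nearly all the signal in the middle of the interval was counted for Il2. On the other side, the last Il21 peak lies 26.8 kb upstream of the Il21 model. The next peak, chr3:37272253-37272952 in the same direction, belongs by the rule to Cetn4, a centrin gene, from which it is 35.7 kb away.

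A Cetn4 peak 58.9 kb upstream of the Il21 start (chr3:37291046-37291926) had a pattern that resembled the central Il21 peaks. It had 42.1 ± 7.60 CPM in Th17n cells with DFMO and 87.6 ± 16.4 CPM in Th17n cells with vehicle, against 5.67 ± 1.67 CPM in iTreg cells with DFMO and 5.74 ± 3.72 CPM in iTreg cells with vehicle (SD, n = 3 each). It was higher in Th17n than in iTreg cells by log2 2.88 ± 0.33 with DFMO (adjusted p = 1.9e-10) and 3.65 ± 0.27 with vehicle (adjusted p = 7.5e-16). In Th17n cells DFMO changed it by log2 -1.03 ± 0.22 (adjusted p = 0.0015).

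The 10 protein-coding genes within 500 kb of Il2 or Il21 had 43 tested peaks in 9 genes. With DFMO, 2 rose and 3 fell in Th17n cells and 2 rose and 3 fell in iTreg cells; between lineages, 14 were higher and 5 lower in Th17n cells with DFMO, and 16 higher and 8 lower with vehicle. As shares, 4.65% rose and 6.98% fell with DFMO in either lineage, near the 4.50% and 4.28% of all peaks in Th17n cells and the 3.84% and 4.72% in iTreg cells. Between lineages 32.6% were higher and 11.6% lower with DFMO (22.5% and 14.7% of all peaks), and 37.2% higher and 18.6% lower with vehicle (25.2% and 19.3%). The median DFMO change was log2 0.06 in Th17n and 0.01 in iTreg cells, where it was 0.01 and -0.01 over all tested peaks. Bbs12 encodes a chaperonin-like protein of the primary cilium, and a peak inside it, near the low-coordinate edge of its model, rose in Th17n cells (87.5 ± 10.5 CPM with DFMO and 60.8 ± 11.4 CPM with vehicle; log2 0.50 ± 0.15; adjusted p = 0.022). A peak nearest to Gm5148 fell there (14.2 ± 5.55 CPM with DFMO and 35.7 ± 4.38 CPM with vehicle; log2 -1.28 ± 0.31; adjusted p = 0.0047). In iTreg cells a second Cetn4 peak fell (11.7 ± 10.9 CPM with DFMO and 27.2 ± 9.53 CPM with vehicle; adjusted p = 0.0032), and peaks outside Bbs12 (6.04 ± 0.712 CPM with DFMO and 1.11 ± 0.158 CPM with vehicle; adjusted p = 0.010) and 4932438A13Rik (19.8 ± 2.02 CPM with DFMO and 9.43 ± 1.99 CPM with vehicle; adjusted p = 0.029) rose. Between lineages with vehicle, peaks of 4932438A13Rik and of Spry1, an inhibitor of receptor tyrosine kinase signalling, were higher in Th17n cells (9.25 ± 1.95 CPM in Th17n and 0.310 ± 0.175 CPM in iTreg cells, adjusted p = 1.6e-07, for the first; 8.75 ± 2.79 CPM in Th17n and 0.992 ± 0.720 CPM in iTreg cells, adjusted p = 1.4e-05, for Spry1). With DFMO, another 4932438A13Rik peak was higher (23.5 ± 1.82 CPM in Th17n and 6.40 ± 1.59 CPM in iTreg cells; adjusted p = 2.6e-05) and a Gm5148 peak lower (5.27 ± 1.83 CPM in Th17n and 20.7 ± 3.43 CPM in iTreg cells; adjusted p = 1.2e-05) in Th17n cells.

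Of 93 tested peaks at 14 genes for the receptors of IL-2 and IL-21 and the proteins that carry or damp their signal, 9 rose and 13 fell with DFMO in Th17n cells, and 3 rose and 8 fell in iTreg cells, with medians of log2 -0.04 and -0.12. Thus 9.68% rose and 14.0% fell in Th17n cells, where 4.50% and 4.28% of all peaks did, and 3.23% rose and 8.60% fell in iTreg cells, where 3.84% and 4.72% of all peaks did. In Th17n cells, a peak inside Stat3, which transmits IL-21 and IL-6 signals, rose (21.2 ± 6.20 CPM with DFMO and 6.25 ± 0.847 CPM with vehicle; adjusted p = 5.6e-05), as did peaks at Socs1 (log2 0.56 ± 0.10; adjusted p = 1.0e-04) and Socs2 (log2 0.69 ± 0.14; adjusted p = 9.3e-04), feedback inhibitors of cytokine signalling. In iTreg cells, a peak in Il2rb, the receptor chain shared by IL-2 and IL-15, fell (34.5 ± 5.91 CPM with DFMO and 63.2 ± 10.9 CPM with vehicle; adjusted p = 5.0e-04) and one near Socs3 fell (log2 -0.89 ± 0.22; adjusted p = 0.0061), while one outside Il2ra, the high-affinity IL-2 receptor chain, rose (55.8 ± 18.7 CPM with DFMO and 30.2 ± 6.87 CPM with vehicle; adjusted p = 0.0036). The Stat3 peak was the most significant of 2 in this list whose DFMO change differed between lineages (log2 1.61 ± 0.36; adjusted p = 0.012); the other was in Jak1 (-0.91 ± 0.25; adjusted p = 0.049). As shares, 1.08% of the list had a more positive and 1.08% a more negative change in Th17n cells, beside 0.835% and 0.478% of all peaks.

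Between the lineages, 14 of the 93 peaks were higher and 16 lower in Th17n cells with DFMO, and 18 higher and 21 lower with vehicle. These were 15.1% higher and 17.2% lower with DFMO (22.5% and 14.7% of all peaks), and 19.4% higher and 22.6% lower with vehicle (25.2% and 19.3% of all peaks). A peak outside Jak1, a kinase bound to both receptors, was higher in Th17n cells (log2 3.55 ± 0.39 with DFMO, adjusted p = 2.3e-11; 3.09 ± 0.31 with vehicle, adjusted p = 7.4e-12). Stat3 peaks were lower in Th17n cells, with log2 -2.60 ± 0.43 at 1 peak with DFMO (adjusted p = 1.2e-06) and -2.68 ± 0.27 at another with vehicle (adjusted p = 1.6e-11). The Il2rb peak was higher in Th17n cells with DFMO (log2 0.99 ± 0.17; adjusted p = 5.3e-06), and an Il2ra peak with vehicle (log2 1.82 ± 0.21; adjusted p = 1.3e-09).

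Transcription factors known to induce or repress Il2 and Il21 had 213 tested peaks at 24 genes. With DFMO, 8 rose and 21 fell in Th17n cells and 5 rose and 19 fell in iTreg cells, with medians of log2 -0.13 and -0.17. The shares were 3.76% higher and 9.86% lower in Th17n cells (4.50% and 4.28% of all peaks), and 2.35% higher and 8.92% lower in iTreg cells (3.84% and 4.72% of all peaks). In Th17n cells peaks fell inside Nfatc2 (3.72 ± 2.21 CPM with DFMO and 25.1 ± 2.53 CPM with vehicle; adjusted p = 2.5e-05), an NFAT factor of activated T cells, inside Fosl2, an AP-1 subunit (8.09 ± 2.06 CPM with DFMO and 36.6 ± 4.14 CPM with vehicle; adjusted p = 3.5e-05), and inside Nfkb1 (8.99 ± 2.15 CPM with DFMO and 30.2 ± 4.66 CPM with vehicle; adjusted p = 4.4e-05). In iTreg cells peaks of Fosl2 (log2 -1.37 ± 0.25; adjusted p = 1.9e-04), Nfatc1 (-0.84 ± 0.18; adjusted p = 0.0020) and Jun (-1.12 ± 0.26; adjusted p = 0.0033) fell.

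In the same list, 61 peaks were higher and 36 lower in Th17n than in iTreg cells with DFMO, and 63 higher and 39 lower with vehicle. That was 28.6% higher and 16.9% lower with DFMO, beside 22.5% and 14.7% of all peaks, and 29.6% higher and 18.3% lower with vehicle, beside 25.2% and 19.3%. The leading peaks were higher in Th17n cells and lay inside Nfkb1 (log2 2.09 ± 0.22 with DFMO, adjusted p = 8.0e-11; another peak 3.87 ± 0.32 with vehicle, adjusted p = 2.3e-14), Nfatc1 (2.30 ± 0.34 with DFMO, adjusted p = 1.3e-07; 3.09 ± 0.29 with vehicle, adjusted p = 2.1e-12) and Nfatc2 (2.55 ± 0.40 with DFMO, adjusted p = 3.1e-07; 3.22 ± 0.33 with vehicle, adjusted p = 1.1e-11). The DFMO change was more positive in Th17n than in iTreg cells at 0.939% of these peaks (0.835% of all peaks). It was more negative at 1.41% (0.478% of all peaks). In number, the lineages differed in DFMO change at 5 peaks of the list. Of these, Ikzf3, which encodes the Il2 repressor Aiolos, had a more positive change in Th17n cells (log2 1.88 ± 0.38; adjusted p = 0.0045), and Zeb1, another Il2 repressor (-1.97 ± 0.43; adjusted p = 0.0094), and Runx1 (-2.16 ± 0.53; adjusted p = 0.022) a more negative one.

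Other T cell cytokine genes had 63 tested peaks in 14 of 16 genes, of which 4 rose and 2 fell with DFMO in Th17n cells and 1 rose and 6 fell in iTreg cells, with medians of log2 -0.05 and -0.12. In Th17n cells 6.35% rose and 3.17% fell, near the 4.50% and 4.28% of all peaks, and in iTreg cells 1.59% rose and 9.52% fell, beside 3.84% and 4.72% of all peaks. Il17f, a signature Th17 cytokine gene, had a peak that fell in Th17n cells (33.3 ± 0.779 CPM with DFMO and 69.0 ± 9.18 CPM with vehicle; adjusted p = 0.0015) and in iTreg cells (4.24 ± 0.987 CPM with DFMO and 10.9 ± 3.30 CPM with vehicle; adjusted p = 0.0085). Peaks of Il17a fell in Th17n cells (log2 -1.28 ± 0.37; adjusted p = 0.019) and, at another position, in iTreg cells (-0.73 ± 0.21; adjusted p = 0.021). A peak at Tnf rose in Th17n cells (log2 0.83 ± 0.26; adjusted p = 0.032), and one near Il10, an anti-inflammatory cytokine gene, fell in iTreg cells (-1.13 ± 0.24; adjusted p = 0.0018). The DFMO change differed between lineages at 2 of the 63 peaks, at Il17a (log2 -2.78 ± 0.73; adjusted p = 0.033) and Il10 (1.15 ± 0.32; adjusted p = 0.049). This was 1.59% of the list in each direction, beside 0.835% of all peaks with a more positive and 0.478% with a more negative change in Th17n cells. Between lineages, 16 were higher and 10 lower in Th17n cells with DFMO and 17 higher and 14 lower with vehicle. Those shares, 25.4% and 15.9% with DFMO and 27.0% and 22.2% with vehicle, were near the 22.5% and 14.7%, and the 25.2% and 19.3%, of all peaks. The Il17f peak led under both treatments (log2 2.92 ± 0.33 with DFMO, adjusted p = 9.1e-11; 2.63 ± 0.23 with vehicle, adjusted p = 5.7e-13), followed by Il17a and Il10 peaks that were also higher (largest adjusted p of the 4 values 6.0e-07).

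Over the 12 libraries, the summed accessibility of Il21 was most like that of 4930432M17Rik (Pearson r = 0.991), Zranb3 (0.988), Atrnl1 (0.987), Basp1 (0.986) and Hipk2 (0.985), among 12556 genes. That of Il2 was most like Mrpl46 (0.979), Tff1 (0.979), Erp44 (0.971), Rora (0.971) and Pgs1 (0.969). Atrnl1, with a sum close to that of Il21, had 254 ± 10.4 CPM in Th17n cells with DFMO and 292 ± 9.39 CPM in Th17n cells with vehicle, against 136 ± 15.2 CPM in iTreg cells with DFMO and 132 ± 4.50 CPM in iTreg cells with vehicle. These values describe genes that separate the same groups and were chosen as the most alike, and the libraries fall into 4 groups, so they carry no test.

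Marker genes were used to check the labels. T cell genes had signal in every library, in the ranges given with the DFMO results. Th17 genes (5 of 5) summed to 357 to 424 CPM in Th17n cells with DFMO and 516 to 570.1 CPM in Th17n cells with vehicle. The iTreg libraries had 127 to 185 CPM with DFMO and 201 to 254 CPM with vehicle, so this list too was lower with DFMO in both lineages. Of its genes, Il23r went the other way in Th17n cells (93.9 CPM with DFMO and 86.5 CPM with vehicle). The sum of the Treg genes did not separate the lineages, with 1076 to 1425 CPM in Th17n libraries and 1098 to 1433 CPM in iTreg libraries. Its members differed in direction. The 1 Foxp3 peak, the gene of the defining Treg factor, averaged 5.41 and 16.1 CPM in Th17n cells with DFMO and with vehicle. In iTreg cells it averaged 5.14 and 4.27 CPM. In the same order of treatments, Ctla4 averaged 322 and 424 CPM in Th17n against 199 and 322 CPM in iTreg cells. Ikzf2 (98.4 and 106 against 129 and 135 CPM), Ikzf4 (91.9 and 105 against 187 and 140 CPM) and Tnfrsf18 (94.1 and 209 against 176 and 268 CPM) averaged less in Th17n cells. Il2ra averaged 498 and 512 CPM in Th17n against 496 and 516 CPM in iTreg cells. Myeloid genes (6 of 6) summed to 114 to 159 CPM. Csf1r and Lyz2 had at most 1.41 CPM in any group mean. The others had signal in every group, with means of 23.1 to 38.8 CPM at Itgam and 24.2 to 31.6 CPM at Spi1. Cd14 had means of 16.4 to 22.9 CPM and Fcgr3 of 42.7 to 65.4 CPM.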

How the data were processed

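ATAC-seq of mouse T cells in 12 libraries (37 bp read pairs, per the labels' protocols) was deposited by the authors as a table of raw, unscaled counts, whole numbers for each peak. Trimmomatic, FastQC, Bowtie2 and MACS2 and the build mm10 are named per the submitters' processing notes; not given in the sources used here are versions, settings and how peaks were merged. Whether starts count from 0 or 1 is likewise unstated. All 12 count columns matched a library and 0 were left unused.

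Peaks were assigned to protein-coding models of RefSeq GRCm38.p6 within 100 kb. Counts were tested with edgeR 4.0.16 in R 4.3.3: TMM scaling, a low-count filter (filterByExpr, minimum count 10), quasi-likelihood fits with trended dispersion and 1 mean per group over all 12 libraries, and Benjamini-Hochberg adjustment over 43726 tested peaks (4717 were not tested). Summed counts per gene were fitted likewise. CPM uses library totals. Scaling by totals moved the median of all peaks by at most 0.072 (log2) against TMM. Standard errors come from the fitted model. The procedure was tested on simulated data. Depth differed 6.36-fold between libraries; 1 count is worth most CPM in the shallowest, and counting limits cover counting error only.

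The animal labels name the same 3 mice in all 4 groups, so libraries of a mouse are paired by design, and an alternative had the animal as a block. After removal of group means, the 18 same-animal pairs correlated at -0.0538 to 0.0756, and 7 of 12 libraries were closest to one of their own animal. Other alternatives were DESeq2 1.42.0, 2 other scalings, other count filters, thinning, fits of the compared groups alone, assignment within 50 kb and leaving out each library.

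All Il21 and Il2 peaks are described. Up to 3 genes per list and contrast with the smallest adjusted p are named, 1 peak each, and the 5 genes most alike by Pearson correlation of log2(summed CPM + 1). The members and lists were chosen with earlier results of these data known. A gene of the marker lists is not reported here.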

Additional observations from a re-analysis of the deposited data

How the results depend on the processing

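With the settings of the report, 31 values passed the threshold, 26 at single Il21 and Il2 peaks and 5 of the summed genes; none of them changed sign in 598 recomputed values, and 22 passed in every alternative. Of 69 values that did not pass, 64 at peaks and 5 of sums, 29 changed sign in some setting (84 of 1306 recomputed values) and 9 passed in some. Lineage calls at the 6 central Il21 peaks passed throughout, although the fitted Il2 value at 45.7 kb with DFMO was 4.41 after thinning, against 2.65.

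Thinning every library to 1020937 counts left 1887 peaks called for DFMO in Th17n cells (3841 without thinning), 1374 for DFMO in iTreg cells (3742), 9282 and 9854 between lineages with DFMO and with vehicle (16280 and 19483) and 155 for the difference of DFMO changes (574). Of the Il21 and Il2 peaks 1 was called for DFMO in each lineage (2 in Th17n and 3 in iTreg cells without thinning). A minimum count of 30 left 12389 peaks called between lineages with vehicle, where fewer peaks were tested. Fitting only the Th17n libraries called 4 Il21 and Il2 peaks for DFMO, and DESeq2 called 1 for the difference of DFMO changes; the cause was not tested.

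Leaving out 1 library gave 1637 to 4607 peaks for DFMO in Th17n cells, with 0 to 2 of the Il21 and Il2 peaks, and 1416 to 4351 for DFMO in iTreg cells, with 1 to 4. The difference of DFMO changes ranged over 192 to 1370 peaks, with 0 to 2. Gene sums ranged over 879 to 1829 for DFMO in Th17n cells (1559 with all libraries), 714 to 1878 in iTreg cells (1784) and 88 to 556 for the difference (272).

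With the replicate block by animal, 2 and 3 Il21 and Il2 peaks were called for DFMO in Th17n and iTreg cells, 10 and 11 between lineages with DFMO and with vehicle, and 0 for the difference; 3729, 3679, 16266, 19291 and 686 peaks of the whole table were called. The block changed no call at these peaks.

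Depth limits the peaks that are near 0 in iTreg cells, where DFMO changes have wide intervals.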
